A study of Mus musculus with 9 samples.

Results

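The transcripts of 8 caspases and caspase regulators, Casp1, Casp2, Casp6, Casp8, Casp9, Cflar, Diablo and Xiap, were followed in RNA of extracellular vesicles (EVs), the membrane particles that cells release with RNA inside. They were chosen by name, as every non-control probe of the array design that carries one of these symbols, which gave 11 probes for 8 of the 36492 gene names on the array. The EVs came from mouse embryonic fibroblasts (MEFs), a connective tissue cell grown in culture, and total EV RNA was hybridised to 1-colour arrays, with 5 arrays for PBS-treated MEFs and 4 arrays for control MEFs. PBS is phosphate-buffered saline, and the labels name no strain, age, transgene or plasmid for either group. Whether electric pulses, the study's way to bring plasmids into cells, were part of the PBS treatment is not stated in the labels. Nothing in the labels says that replicates came from separate cultures, so p-values measure the spread between these arrays, which may be technical. RNA was pooled over vesicles, so fewer vesicles that carry a transcript and less of it per vesicle cannot be told apart.

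Caspases are proteases that are made as inactive precursors and cut other proteins after aspartate. Casp8 is switched on at death receptors of the cell surface, Casp9 on the apoptosome that forms once mitochondria release cytochrome c, and Casp2 on the PIDDosome, a complex built by Pidd1 and Cradd, and these initiators pass the signal to effectors such as Casp6. Cflar (c-FLIP), a relative of Casp8 without protease activity, blocks the first route, Xiap binds and inhibits Casp9 and other caspases, and Diablo (Smac), once out of the mitochondria, displaces Xiap. Casp1 belongs to another branch, the inflammasome, where it matures interleukins.

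The probes of Cflar and Diablo are shown first because genes with several probes allow the same transcript to be read at different places. Each line gives the first 30 bases of a 60-base probe, 5′ to 3′ on the strand of the transcript, as the design gives it for mouse build mm9, and the sequences of the Casp8 and Xiap probes, the members with the largest rises, follow them. The exon or UTR that each probe reads was not analysed here. The design assigns the first and second Cflar probes to transcript variant 1 and the third to transcript variant 2, at chr1:58811116-58811145, chr1:58810660-58810689 and chr1:58789994-58790023 on the plus strand. The Diablo stretches lie at chr5:123962200-123962229 and chr5:123973323-123973352 on the minus strand, that of Casp8 at chr1:58901601-58901630 and that of Xiap at chrX:39462720-39462749, both on the plus strand.
Cflar A_52_P226929: gatttgacactgaatgtaacttgagactta
Cflar A_55_P1983459: tcatggacaaagtgtatgcgtggaacagtg
Cflar A_55_P1983468: ctttcttgctgatgtataaattgcctcctt
Diablo A_51_P494929: cacacccttaagttcagtagctgtttaact
Diablo A_66_P133025: aacgctgtttctcagaattgataaaaccat
Casp8 A_51_P247799: gtgaagaactgcgtttcctaccgagatcct
Xiap A_55_P2052892: cgtttatggaaactcctttatggaattgct

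Between 16492 and 19233 of 55681 probes were well above background on the arrays of PBS-treated EVs, against 12584 to 15554 on those of control EVs, where replicates 3 and 4 were the 2 lowest. Those 2 arrays shared a slide with PBS-treated replicates 4 and 5 (slide 2), and the other 5 arrays lay on slide 1, so values are also given within each slide. Signals are log2 of the background-corrected intensity minus the 75th percentile of the same array, taken over the 8422 probes detected on all 9 arrays. Before that scaling, the percentile averaged 1473 in PBS-treated and 675 in control EVs. Of 12 fibroblast markers 10 were tested, and their mean level ran between -1.93 and -1.71 in PBS-treated and between -1.64 and -1.51 in control EVs, with Thy1 within background on all 9 arrays, 2 of the 10 higher and 4 lower. The 4 epithelial markers did not pass the filter. Ptprc, which all leukocytes carry, was well above background on 1 array, and Cd68 and Adgre1 on none, while the leukocyte genes Cd14, Itgam and Csf1r were detected, with a mean level of the 3 between -2.72 and -1.64 in PBS-treated and between -2.63 and -1.03 in control EVs. Cd14 differed by 2.21 (adjusted p = 0.00101), Itgam by -1.30 (adjusted p = 0.00248) and Csf1r by -2.70 (adjusted p = 0.0245). Endothelial Kdr and Pecam1 averaged -5.34 to -4.56 in PBS-treated and -4.00 to -2.74 in control EVs, both lower (adjusted p = 0.00101 and 0.0477), and Cdh5 was within background on all 9. With spike-in scaling Kdr was at -0.15 (adjusted p = 0.590) and Pecam1 at -0.53 (adjusted p = 0.545). Pecam1 entered the test only through control arrays, and Lum, a fibroblast marker counted as higher, only through PBS-treated arrays, so their calls are read with that limit. The part that such transcripts have in the values below was not tested.

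Of the 8 genes, 7 passed the filter of 4 arrays well above background. EVs of PBS-treated MEFs held more signal of the initiators Casp8, Casp9 and Casp2, of the effector Casp6 and of the inhibitor Xiap, and less of the inhibitor Cflar and of the Xiap antagonist Diablo (limma, adjusted p under 0.05 over all genes tested). Neither fall passed with spike-in scaling, where Diablo was at 0.20, and of the rises that of Xiap alone passed with normexp background correction at the same percentile. The background was high, since 7477 of 14319 genes passed, which is 52.2%, with 31.5% higher and 20.7% lower. In all 7 members the values of the groups did not overlap, as in 46.9% of all genes. Casp2, Xiap, Cflar and Diablo were well above background on all 9 arrays, while Casp6, Casp8 and Casp9 were so on all 5 PBS-treated and on 2 of the 4 control arrays. Casp6, Casp8 and Casp9 thus entered the test only through the PBS-treated group, and their adjusted p are read with that limit.

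Casp8 had the largest difference of the 7 tested genes at this scaling, although with normexp and in the authors' value table Xiap exceeded it, and without control replicates 3 and 4 Cflar did in size. Its log2 signal was -3.39, -3.18, -3.44, -2.95 and -3.03 in PBS-treated replicates 1 to 5, against -4.83, -4.81, -6.14 and -6.46 in control replicates 1 to 4. The PBS-treated arrays lay close together, and the controls fell into a higher pair on slide 1 and a lower pair on slide 2, where the probe was not well above background. The log2 difference was 2.36 ± 0.37 (SE, adjusted p = 0.000799, n = 5 and 4), or 5.14-fold, a size that rests in part on the 2 control signals within background. Without control replicates 3 and 4 it was 1.62 (adjusted p = 0.000414).

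Casp9 and Casp2, the initiators of the mitochondrial and PIDDosome routes, rose by less. Casp9 had log2 signals of -2.76, -2.71, -2.92, -2.96 and -2.96 in PBS-treated EVs, against -3.61, -3.50, -3.95 and -4.20 in control EVs, where only replicates 1 and 2 were well above background. The lowest PBS-treated array was higher than the highest control, and the log2 difference was 0.95 ± 0.17 (SE, adjusted p = 0.00143), or 1.93-fold. Casp2 was well above background on all 9 arrays and had -2.22, -2.06, -1.95, -2.38 and -2.33 in PBS-treated EVs, against -2.91, -2.83, -3.15 and -2.76 in control EVs. Here the controls did not split by slide, and control replicate 4 was the highest of them. Casp2 rose by 0.72 ± 0.14 (log2, SE, adjusted p = 0.00253), or 1.65-fold, a value larger than that of 70.7% of all genes. On slide 2 alone its difference of 0.60 did not pass (adjusted p = 0.0540).

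Casp6, an effector that cuts nuclear lamins, varied little in PBS-treated EVs, with a log2 signal of -2.92, -2.93, -2.81, -3.05 and -2.90, against -3.98, -3.96, -4.57 and -4.86 in control EVs. Control replicates 3 and 4 were again lowest and not well above background. The difference was 1.42 ± 0.20 (SE, adjusted p = 0.000473), or 2.68-fold. Casp1, the inflammasome caspase, stayed within background on all 9 arrays and was not tested. Its log2 signal ran between -8.60 and -5.79 in PBS-treated and between -7.67 and -4.25 in control EVs, and these ranges overlap.

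**Figure D1:**
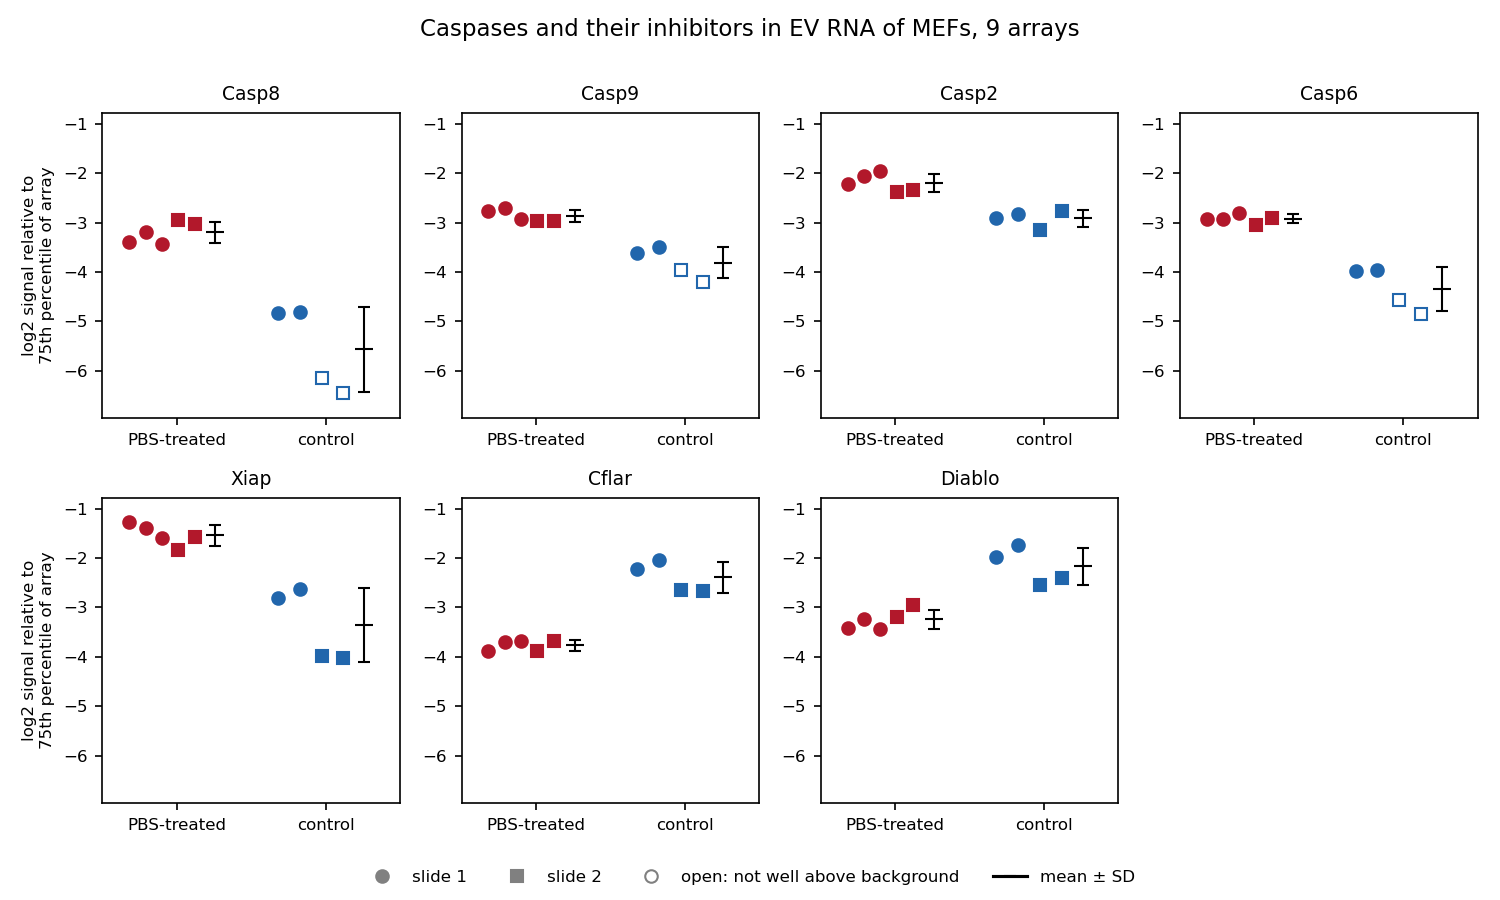
Log2 signal of the 7 tested genes on each of the 9 arrays, relative to the array's 75th percentile, with circles for slide 1, squares for slide 2, open symbols for arrays where the probe was not well above background, and bars for the mean ± SD of each group. PBS-treated arrays lie above the controls for Casp8, Casp9, Casp2, Casp6 and Xiap and below them for Cflar and Diablo, and for all but Casp2 both slide 2 controls lie below both slide 1 controls.

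The inhibitors went in opposite directions. Xiap, the direct caspase inhibitor, had log2 signals of -1.28, -1.40, -1.59, -1.84 and -1.57 in PBS-treated EVs, against -2.81, -2.63, -3.99 and -4.03 in control EVs, all well above background. The highest control lay below the lowest PBS-treated array, and the controls again split by slide. Xiap rose by 1.83 ± 0.33 (log2, SE, adjusted p = 0.00163), or 3.55-fold, and by 1.18 (adjusted p = 0.00164) without control replicates 3 and 4.

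Cflar, the Casp8 inhibitor, had the largest fall among the tested genes. Its brightest probe, A_52_P226929, gave -3.89, -3.71, -3.69, -3.89 and -3.69 in PBS-treated EVs, against -2.23, -2.04, -2.64 and -2.67 in control EVs. Every control lay above every PBS-treated array. The log2 difference was -1.38 ± 0.16 (SE, adjusted p = 0.000151), or 2.60-fold lower, and 18.7% of all genes had a lower value.

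The second variant 1 probe of Cflar, A_55_P1983459, was dimmer and fell too. It gave -6.14, -6.06, -5.97, -6.08 and -5.51 in PBS-treated EVs, against -4.25, -4.07, -5.23 and -5.51 in control EVs. PBS-treated replicate 5 and control replicate 4 met at the same rounded value, and the 2 slide 2 controls were not well above background. With every probe as its own feature, where 52.4% of 17765 probes passed, its difference was -1.19 ± 0.32 (SE, adjusted p = 0.0130). The probe that the design assigns to variant 2, A_55_P1983468, gave another pattern, and which isoforms each probe detects was not worked out. It was well above background on PBS-treated replicates 1 to 3 and on no control array, with -6.11, -5.82, -5.46, -5.60 and -5.99 in PBS-treated EVs, against -6.67, -6.74, -6.08 and -6.16 in control EVs. These groups overlap, and with 3 arrays well above background the probe was not tested. Its mean was -5.80 ± 0.27 in PBS-treated (SD, n = 5) and -6.41 ± 0.34 in control EVs (SD, n = 4), close to the dimmest signals that count as detected, so no fold is given.

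Diablo had a log2 signal of -3.41, -3.23, -3.43, -3.20 and -2.95 in PBS-treated EVs, against -1.98, -1.73, -2.54 and -2.41 in control EVs. All arrays were well above background and the groups did not overlap, although slide 2 brought them closer. The difference was -1.08 ± 0.20 (SE, adjusted p = 0.00183), or 2.11-fold lower. Its second probe, A_66_P133025, was well above background only on control replicates 1 and 2, at -5.53 and -5.14, with -6.03 and -6.39 on control replicates 3 and 4. In PBS-treated EVs it ran between -8.58 and -7.72, with none of the 5 arrays well above background, so its signal there was at least 2.03-fold lower. For this bound, and the others written as "at least", 1 group had no array well above background, and its arrays count at no less than their lowest detected signal. Dim arrays of the other group keep their measured signal. These bounds hold for the percentile scaling without normexp only. The probe was not tested.

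**Figure D2:**
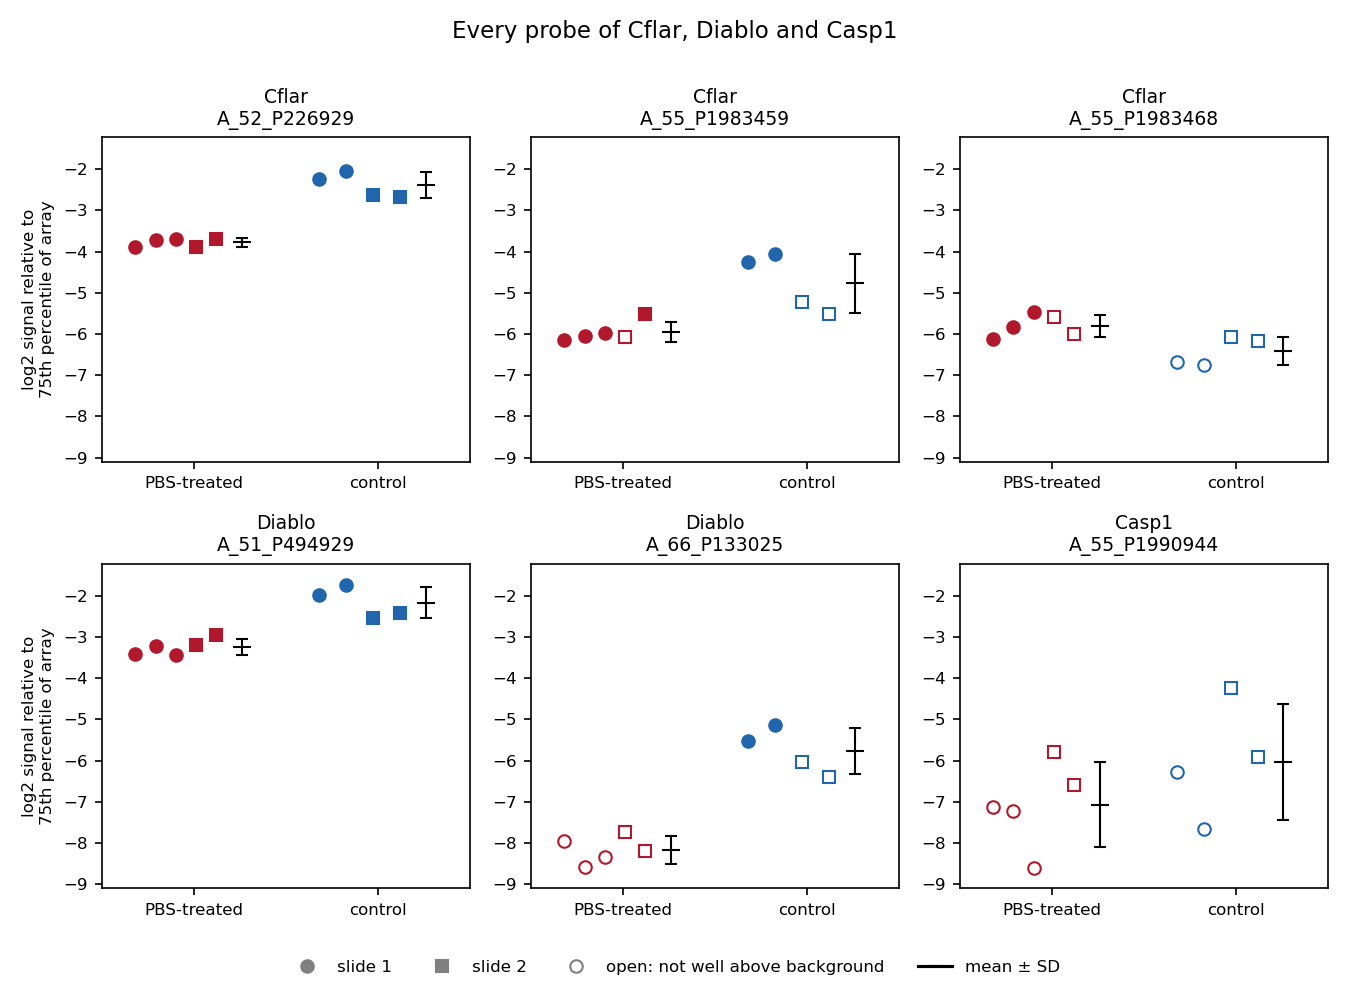
Log2 signal of all 3 Cflar, both Diablo and the single Casp1 probe on each array, relative to the array's 75th percentile, with symbols and bars for slide, detection and mean ± SD. Both Cflar variant 1 probes and both Diablo probes are lower on PBS-treated arrays or meet the controls at 1 value, while the variant 2 probe of Cflar averages -5.80 in PBS-treated and -6.41 in control EVs and the Casp1 values overlap.

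The slides differed in size but not in direction. Casp8 differed by 1.48 on slide 1 and 3.31 on slide 2, Xiap by 1.30 and 2.30, Casp6 by 1.09 and 1.74, Casp9 by 0.76 and 1.11, and Casp2 by 0.79 and 0.60. Cflar differed by -1.63 on slide 1 and -1.14 on slide 2, and Diablo by -1.50 and -0.60. The change between slides, slide 2 minus slide 1, was tested as an interaction chosen after these values were seen, and 9.39% of all genes passed. It passed for Casp8 (1.82, adjusted p = 0.00492), Xiap (1.0, adjusted p = 0.0339) and Diablo (0.90, adjusted p = 0.0442), and not for Casp6 (0.65, adjusted p = 0.0768), Cflar (0.49, adjusted p = 0.151), Casp9 (0.36, adjusted p = 0.262) and Casp2 (-0.20, adjusted p = 0.611). With slide as a block all 7 members still passed, with differences between -1.41 for Cflar and 2.31 for Casp8. That fit called 9975 of 14319 genes, with 35.4% of all genes higher and 34.3% lower.

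The falls of Cflar and Diablo were relative to the other RNA on the array. Before scaling, the brightest Cflar probe had an intensity of 73.6 to 167 in PBS-treated and 68.4 to 249 in control EVs. The brightest Diablo probe had 119 to 233 in PBS-treated and 77.8 to 308 in control EVs, so both overlapped. The second variant 1 probe of Cflar overlapped too, as did the second Diablo probe, at 3.92 to 6.12 in PBS-treated and 5.16 to 29.2 in control EVs. The dim variant 2 probe of Cflar did not overlap, with 18.1 to 38.7 in PBS-treated and 6.07 to 9.6 in control EVs. For the 5 members that rose, the groups did not overlap before scaling either, as with Casp8 at 132 to 241 in PBS-treated and 4.92 to 36.5 in control EVs. Scaled to 7 spike-in RNAs of known amount, the median of all genes moved to 1.26, Cflar was at -0.10 (adjusted p = 0.625) and Diablo at 0.20 (adjusted p = 0.422), while the rises were between 2.0 for Casp2 and 3.64 for Casp8. Relative to that median, Cflar stood at -1.36 and Diablo at -1.06. With the percentile taken over all probes, Cflar (-0.98, adjusted p = 0.112), Diablo (-0.67, adjusted p = 0.252) and Casp2 (1.13, adjusted p = 0.0661) did not pass.

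The sizes of the rises depended on how background was removed. The normexp correction, which keeps all signals above 0 with an offset of 50, gave 0.95 for Xiap (adjusted p = 0.000295) at the same percentile, but 0.34 for Casp8 (adjusted p = 0.170), 0.22 for Casp6 (adjusted p = 0.283), 0.11 for Casp9 (adjusted p = 0.564) and 0.10 for Casp2 (adjusted p = 0.624), while the median of all genes moved to -0.51. Cflar and Diablo still passed there, at -1.22 and -0.96. Normexp followed by quantile normalization gave Casp8, Casp6, Casp9 and Xiap past the threshold again, at 1.07, 0.86, 0.72 and 1.40, with Casp2 at 0.46 (adjusted p = 0.0506) and Diablo at -0.51 (adjusted p = 0.0913).

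**Figure D3:**
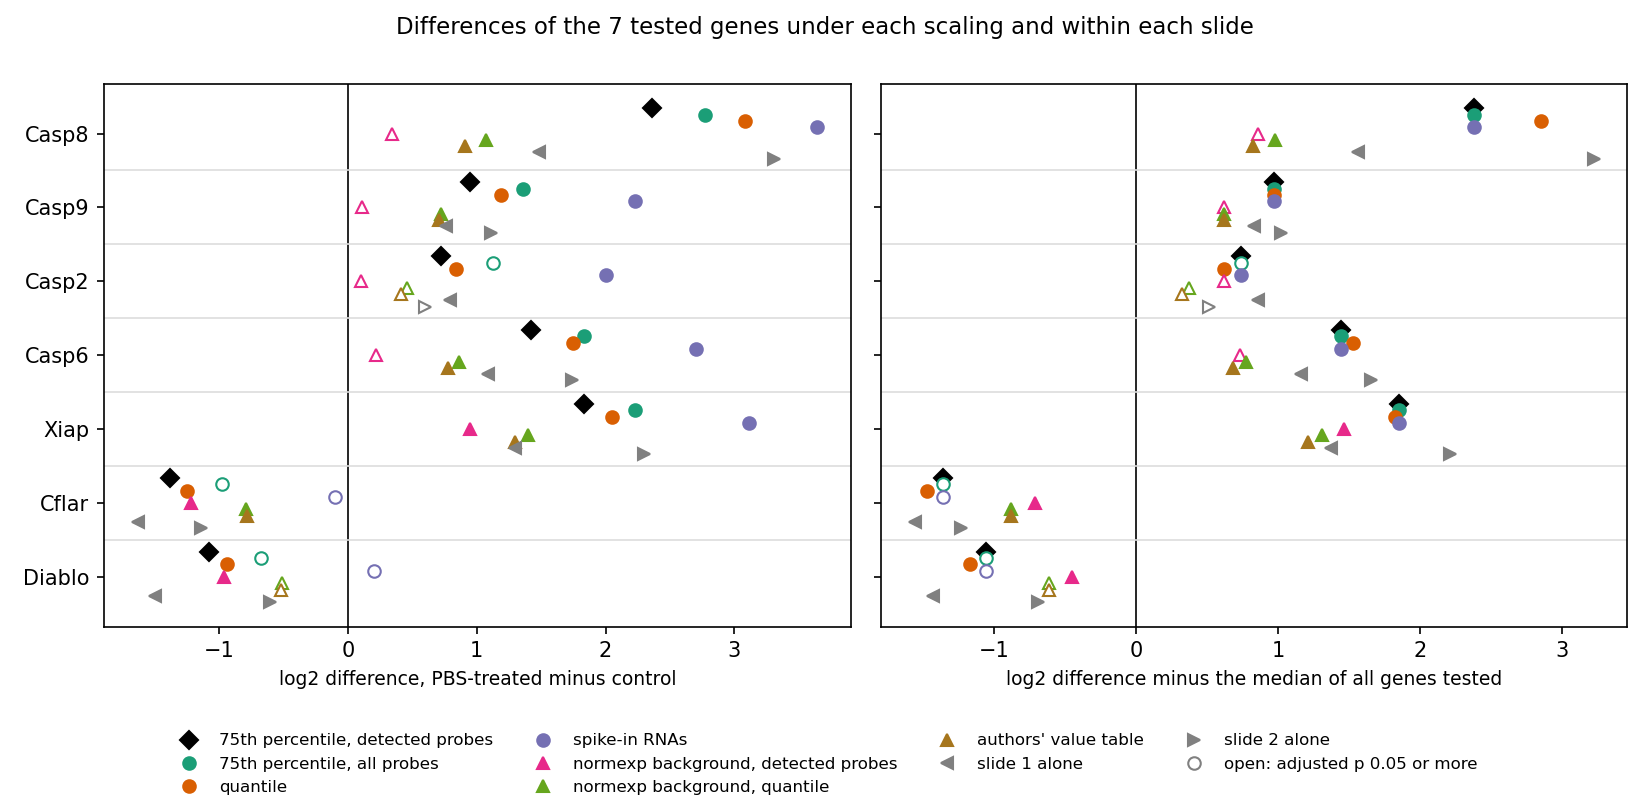
Log2 difference of the 7 tested genes, PBS-treated minus control, under 7 scalings or background corrections and within each slide, on the left as fitted and on the right minus the median of all genes tested under that setting, with open symbols where the adjusted p was 0.05 or more. Xiap passes under every setting drawn, Cflar lies at -0.10 and Diablo at 0.20 with spike-in scaling, and relative to the median no gene changes sign.

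The other genes of the same pathways were read from lists of 33 genes, of which 24 were tested, 16 rose and 2 fell, beside 31.5% higher and 20.7% lower over all genes, with a median difference of 0.93 against -0.02 over all genes tested. The normexp correction at the same percentile turned that median to -0.14, against -0.51 over all genes, with 6 higher and 5 lower, where 13.2% of all genes were higher and 32.5% lower. Spike-in scaling gave 21 higher at a median of 2.21, where 62.4% of all genes were higher at a median of 1.26. With only probes well above background on all 9 arrays, 9 of the listed genes were tested. Of these, 7 were higher and 1 lower, where 32.9% of all genes were higher and 29.6% lower. Fas, Ripk1, Parp1, Lmnb1 and Mlkl, detected on at most 3 control arrays, could not have passed the main filter without PBS-treated arrays. Casp4, an inflammatory caspase that senses cytosolic endotoxin, was at least 12.7-fold higher without normexp. It averaged -1.69 ± 0.19 in PBS-treated (SD, n = 5) and -5.93 ± 0.51 in control EVs (SD, n = 4), where it was on no array well above background. Like Birc3, Cradd and Gsdmd it entered the test only through PBS-treated arrays, and its adjusted p (4.26e-06) and theirs are read with that limit. Its difference with normexp was 1.56 (adjusted p = 0.00128), and its second tested probe differed by 3.50. Casp12 and Casp14 were not tested.

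Of the IAP family, relatives of Xiap, 2 of 4 rose, where 31.5% of all genes did, and Birc2 (0.81, adjusted p = 0.393) and Birc6 (0.82, adjusted p = 0.0819) did not pass. Birc3, a ubiquitin ligase of TNF receptor complexes, was at least 1.57-fold higher without normexp (adjusted p = 5.92e-05) and at -0.37 with it (adjusted p = 0.185). Birc5 (survivin), which acts in cell division, differed by 0.90 ± 0.15 (SE, adjusted p = 0.00126) at the brightest of its probes and by 0.11 at another. Of the apoptosome, where Casp9 is activated, Cycs, which encodes cytochrome c, rose by 1.70 ± 0.22 (SE, adjusted p = 0.000297) with 1.69 at a second probe and 1.79 under normexp (adjusted p = 0.00211). Htra2, a mitochondrial protease that also binds IAPs, differed by 0.35 (adjusted p = 0.0279) and by -0.10 at a second probe. Apaf1, the scaffold of the apoptosome, was within background on all 9 arrays.

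Upstream of Casp8, 5 of 7 death receptor and adaptor genes rose, where 31.5% of all genes did. With normexp Tnfrsf1a, Tradd and Traf2 still rose, Ripk1 was at -0.01, and Tnfrsf10b fell by 0.73 on the log2 scale (adjusted p = 0.0274). The median of all genes was -0.51 in that fit, where 32.5% of all genes were lower. The receptor Fas differed by 3.03 ± 0.41 (SE, adjusted p = 0.000357), with control EVs well above background on 1 of 4 arrays and 0.42 under normexp (adjusted p = 0.192). The adaptor Traf2 differed by 1.13 ± 0.16 (SE, adjusted p = 0.000466), and its second tested probe differed by -1.91, so its probes disagree. Fadd, which links Casp8 to the receptors, averaged -4.39 ± 0.25 in PBS-treated (SD, n = 5) and -4.84 ± 0.58 in control EVs (SD, n = 4) and did not pass (adjusted p = 0.198). Its difference was -0.12 on slide 1 and 1.07 on slide 2, and with normexp it was -0.56 (adjusted p = 0.0439). In the PIDDosome, the platform of Casp2, Cradd was at least 1.70-fold higher without normexp (adjusted p = 0.00256) and at -0.31 with it (adjusted p = 0.271). Pidd1 averaged -6.83 ± 0.88 in PBS-treated (SD, n = 5) and -4.84 ± 2.29 in control EVs (SD, n = 4). By its means it was at least 3.35-fold lower, but the control values spread widely. It was well above background on 2 control arrays and no PBS-treated array, and was not tested.

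Around Casp1, 3 of 6 genes were too dim to test, namely Nlrp3, Aim2 and Il1b. Il18, an interleukin that Casp1 matures, fell by 1.05 on the log2 scale (adjusted p = 0.00298) and stood at 0.23 with spike-in scaling (adjusted p = 0.374). Gsdmd, the pore former that inflammatory caspases cut, was at least 1.48-fold higher without normexp (adjusted p = 0.000609) and at -0.51 with it (adjusted p = 0.0970). Of the necroptosis genes, the effector Mlkl differed by 1.25 ± 0.33 (SE, adjusted p = 0.0119) and by 0.40 under normexp (adjusted p = 0.150), and Ripk3 did not pass (0.46, adjusted p = 0.0873).

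Of the caspase substrates 3 of 4 tested rose, where 31.5% of all genes did, and with normexp Lmna alone of these kept its rise, with Lmnb1 at -0.13 (adjusted p = 0.507). Lmna, the nuclear lamin that Casp6 cuts, differed by 0.97 ± 0.11 (SE, adjusted p = 0.000148) and by 1.0 under normexp (adjusted p = 0.000502), and Parp1, a DNA repair enzyme, by 1.41 ± 0.25 (SE, adjusted p = 0.00159) but by -0.25 under normexp (adjusted p = 0.313). Dffa, which holds the caspase-activated nuclease in check, fell by 2.18 on the log2 scale (adjusted p = 0.0240), with 2 arrays well above background in each group, and its second tested probe differed by -4.20. It stood at -0.90 with spike-in scaling (adjusted p = 0.257).

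**Figure D4:**
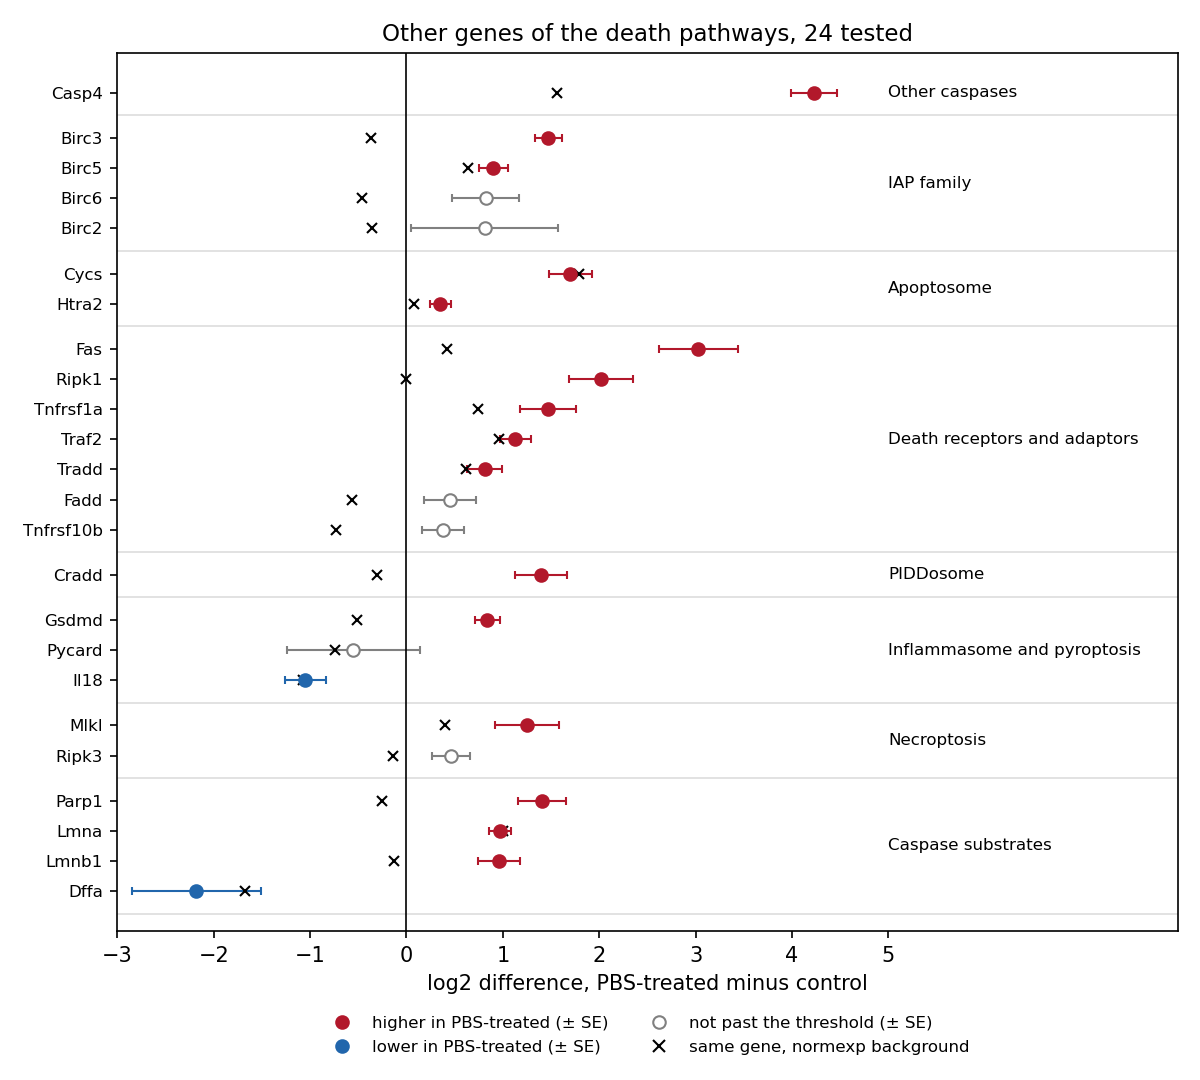
Log2 difference, PBS-treated minus control, of the 24 tested genes of the pathway lists, with circles and bars for the fitted value ± SE, open circles where the adjusted p was 0.05 or more, and crosses for the same gene after normexp background correction. Of these, 16 are higher and 2 lower, and with the crosses 10 of 24 stay above 0.

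The genes whose signal was most like that of Casp8 over the 9 arrays were Ccdc32, Pcnp and Tlk2, each with a Pearson r of 0.996, and those most like Cflar were Trak2 at 0.996 and Kctd15 and Peak1 at 0.995. The arrays share the difference between groups and between slides, and 2640 genes correlated with Casp8 and 1458 with Cflar at an r above 0.9, so such values are common here. Ccdc32, Pcnp and Tlk2 differed by 2.73, 1.08 and 1.51, and Trak2, Kctd15 and Peak1 by -2.64, -2.10 and -1.32.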

How the data were processed

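RNA of EVs from 5 PBS-treated and 4 control MEF samples was purified, labelled with cyanine 3 and hybridised to 1-colour Agilent mouse arrays with 62976 spots. The scans were read by the authors in Agilent Feature Extraction (version 10.7.3.1 in the file headers), and the deposited scanner files hold, per spot, the intensity on a linear scale, background-corrected (processed signal) and as mean and background signal. A deposited value table holds log2 values that ranked probes as the mean signal of each array did (Spearman 1.0). Its centring is not stated, but its median was 5.974 on every array, and it served as an alternative. The authors' in-house pipeline normalized it, with no method given in the sources used here.

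Control spots and spots marked as non-uniform (3 to 29 per array) were dropped, log2 processed signals of a probe were averaged, and each array's 75th percentile over 8422 detected probes was subtracted. Probes well above background on at least 4 arrays were tested (17765 probes), and the probe of highest mean stood for its gene (14319 genes). Accessions of 26413 probes matched a RefSeq table, all 11 member probes among them. The fit used lmFit and eBayes of limma 3.58.1 under R 4.3.3, two-sided, and genes with a p under 0.05 after Benjamini-Hochberg adjustment were called, checked on simulated data, and figures were made with Python 3.11.15 and matplotlib 3.10.9. Alternatives were other scalings, normexp, other filters, other ways to take a gene's probes, the slide, a replicate block, array weights, the methods' t-test, each array left out in turn and control replicates 3 and 4 left out together.

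The 8 genes, the pathway and marker lists and the alternatives were chosen with earlier results of these data known. Named from each list were at most 2 members per direction with the smallest p among those that passed, and Fadd, Ripk1, Ripk3, Tnfrsf1a, Tnfrsf10b, Tradd, Birc2, Birc6, Lmnb1, Apaf1 and the untested genes were named after their values were seen. Some genes of the pathway lists are not reported here. For Casp8 and Cflar the 3 genes of highest Pearson r were named. The number of arrays limits the precision. Before rounding, no tested probe had exactly equal values on 2 arrays of a group (0%).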

Additional observations from a re-analysis of the deposited data

Results flagged for a closer look

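Of 16 sets of arrays examined, 1 had an array far from the others. The second variant 1 probe of Cflar, A_55_P1983459, had a log2 signal of -5.51 in PBS-treated replicate 5, while the other 4 PBS-treated arrays lay between -6.14 and -5.97. Chance alone gives such a gap in about 1 of 20 sets. The brighter Cflar probe had -3.69 on that array, within the range of the others.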

How the results depend on the processing

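The 5 rises and 2 falls among the members, and the 7477 genes called, were recomputed under each alternative. Scaling to the percentile over all probes left 4 rises, 0 falls and 4883 genes, with 24.6% of all genes higher and 9.46% lower. Spike-in scaling left 5 rises and 0 falls, with Diablo at 0.20, where 62.4% of all genes were higher and 5.02% lower. Under both, limma gave 0 falls among the members at an unadjusted p under 0.05 too. Normexp at the same percentile left 1 rise and 2 falls, where 13.2% of all genes were higher and 32.5% lower. Normexp with quantile normalization and the authors' value table each left 1 fall, where 13.4% and 13.3% of all genes were lower. With only probes well above background on all 9 arrays, 4 members and fewer genes were tested, which left 2 rises and 4507 of 7212 genes. The share of called genes that were higher was 60.4%, against 72.3% with the percentile over all probes, 92.5% with spike-in scaling, 28.9% with normexp at the same percentile and 40.6% without a filter. Without each array in turn, all 7 members passed in the same direction, 5 up and 2 down, with 6658 to 7370 genes called. Replicates 1 to 4 share numbers between the groups. Deviations of same-numbered arrays correlated at 0.70, 0.73, -0.54 and 0.74. Arrays of different numbers on the same slide correlated at 0.57 to 0.71, and all pairs across slides were negative. The sign followed the slide, so these values cannot tell whether the numbers pair the samples. The replicate block gave 5 rises, 2 falls and 7443 genes. The dim control signals of Casp6, Casp8 and Casp9 limit the size of their folds.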
